A study of Mus musculus with 11 samples.

Results

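The accessible chromatin of 10 smooth muscle contractile genes (Acta2, Actg2, Tagln, Cnn1, Lmod1, Tpm1, Tpm2, Myh11, Myl9 and Mylk) was described in basal and luminal cells of the pubertal mouse mammary gland. A peak belonged to the set when it overlapped one of these genes or lay within 50 kb of the 5' end of its gene record in mm10, and each peak was given to the nearest of the 10 genes. This gave 201 of the 153396 peaks with counts. Of the 201 peaks, 14 reached to 500 bp or less from a transcript start (TSS, protein-coding transcripts) of their own gene, 68 lay elsewhere in their own gene, 21 lay at the promoter of another gene, 46 inside another gene and 52 between genes. Mylk held 36 of the peaks, Tpm1 26, and the other genes 13 to 20 each.

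Accessibility was measured by ATAC-seq, in which a transposase cuts and tags open DNA, on C57BL/6 females aged 5 weeks that carried an E-cadherin-GFP reporter. Terminal end buds (TEBs), which lead the growth of ducts at puberty, and the ducts behind them were micro-dissected under GFP fluorescence. Basal and luminal cells were then sorted from each, all as Lin-CD29+CD24+ cells, the basal cells with low and the luminal cells with high E-cadherin-GFP. Basal duct cells gave replicates 1 and 3, and the other 3 groups (luminal cells of ducts, and both lineages of TEBs) gave replicates 1 to 3 each, with no other allele or agent named, and a further basal duct sample was discarded in the study for low cell number. All 4 groups carried the reporter that guided dissection and gating. Depletion by lineage surface markers was directed at endothelial, immune and erythroid cells, and no such marker was named for pericytes or fibroblasts. The number of animals behind each ATAC-seq library was not found in the sources read.

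Basal mammary cells mature into myoepithelium, a layer of contractile epithelial cells around ducts and alveoli that squeezes out milk when oxytocin is released. Its contraction runs on the smooth muscle system: actin filaments carry tropomyosin, calponin and transgelin, and smooth muscle myosin pulls on them once myosin light chain kinase has phosphorylated its regulatory light chain. Most of these genes are known targets of serum response factor (SRF) and its coactivators myocardin and MRTF, and SRF binds the CArG box, a short run of A and T bases between a pair of C and a pair of G.

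Of the 21 CArG boxes found in the peaks of these genes, 10 are shown, because they mark sites to which the values below refer. The other 11 lay around Tagln (3), at the Actg2 promoter (2), further upstream of Acta2 (3), elsewhere in Mylk (2) and at the promoter of Tln1 upstream of Tpm2 (1). Sequences were read on the strand of the gene from GRCm38.p6, the RefSeq assembly of mm10, with 10 bases on each side of the box and the box in capitals. The 2 boxes just upstream of the RefSeq start of Acta2 each carry a single G or C in the A and T run and are called CArG-like here.
Acta2 promoter, distal CArG-like box, chr19:34255438-34255467, minus strand: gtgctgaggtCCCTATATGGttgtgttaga
Acta2 promoter, proximal CArG-like box, chr19:34255388-34255417, minus strand: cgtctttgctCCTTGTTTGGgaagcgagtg
Acta2 promoter peak, first intron, chr19:34254278-34254307, minus strand: gtgtgttttaCCTAATTAGGaaatgctccc
Acta2 upstream peak, chr19:34265824-34265853, minus strand: agctgccttcCCTTATAAGGttaaggttct
Cnn1 second promoter peak, chr9:22100116-22100145, plus strand: agccgccgcgCCTTATAAGGcggccttggg
Tpm2 upstream promoter peak, chr4:43524369-43524398, minus strand: gggaaacatcCCAAAAAAGGgcagaaaaga
Tpm1 intron, chr9:67041029-67041058, minus strand: cctttcttgaCCATATAAGGgcaggagttt
Lmod1 first intragenic site, chr1:135347927-135347956, plus strand: cctggtttctCCAAAAATGGggcttgcaac
Lmod1 second intragenic site, chr1:135359189-135359218, plus strand: tgctccttctCCTTTTAAGGcaaggtctga
Mylk intragenic site, chr16:34921337-34921366, plus strand: ttgcacacacCCTTATAAGGctactgaaat
Mylk promoter near the 3′ end, chr16:34994789-34994818, plus strand: ataaactatcCCTTTTATGGgagttgaagc
The Myl9 promoter peak held a CArG and 2 CArG-like boxes, and the CArG box and the CArG-like box nearest to the start are shown in a single run that ends before the transcript.
Myl9 promoter, chr2:156775273-156775404, plus strand: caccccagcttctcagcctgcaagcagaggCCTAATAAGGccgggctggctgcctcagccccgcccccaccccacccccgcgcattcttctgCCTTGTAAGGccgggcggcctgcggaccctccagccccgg
Acta2, Cnn1 and Mylk carried the same 10 letters in 3 different places, upstream of Acta2, at the second promoter peak of Cnn1 and deep inside Mylk.

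In all, the peaks of the set held 21 CArG boxes in 18 peaks of 9 genes, Myh11 being the gene without one. The box was present in 7 of the 14 own promoter peaks, which belonged to 7 genes, against 3.298% of the 17888 peaks within 500 bp of any protein-coding TSS. Own promoter peaks had a median width of 790.5 bp and all TSS peaks one of 958 bp. The share was 8.82% in other peaks of the gene bodies and 4.08% in the flanks between or inside other genes, and 2.22% in the 135508 peaks of the series away from a TSS. CArG-like boxes, with 1 of the A and T bases replaced, were in 5 of the 14 own promoter peaks and in 19.4% of all TSS peaks. The TEAD site GGAATG, searched on both strands, was in 6 of 14 and in 33.7%. In the RefSeq promoter windows, which reach from 250 bases before to 50 after a start and were found for 7 of the 10 genes, only Myl9 held a CArG box (all 32851 windows, 1.63%), Acta2 and Myl9 held CArG-like boxes (8.499%) and Acta2, Lmod1, Mylk and Tpm1 held a TEAD site (14.7%). The genes were chosen as contractile genes, many of them known for this box, so the shares are a description of the set.

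**Figure D1:**
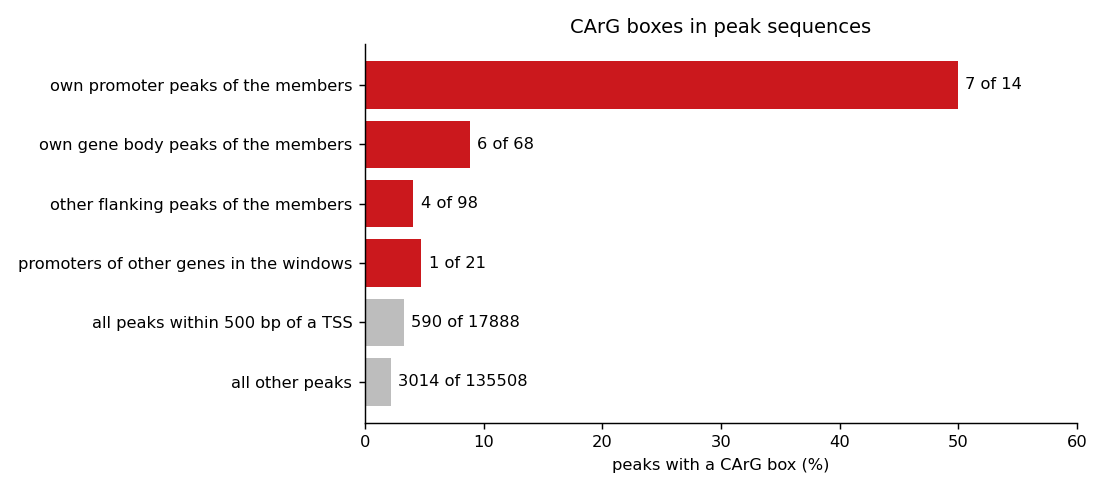
Share of peaks (%) whose sequence holds a CArG box, for the classes of peak around the contractile genes (red) and for all peaks of the series (grey), with counts beside the bars. The box is in 7 of the 14 own promoter peaks, and in a share of 8.82% or less in each other class.

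Counts in peaks ran from 1821942 to 9986384 per library, and the 3 basal TEB libraries were the shallowest. Soft-masked (repeat) peaks (over 50% of their bases) took 7.03 to 16.2% of the counts in basal TEB libraries and 2.403 to 7.21% in the others. Promoter peaks of basal markers were higher in basal cells for 7 of 8 genes in ducts and 6 in TEBs, and those of luminal markers lower for 6 and 8 of 8. Levels are CPM, counts scaled to a common library size in peaks with factors from the trimmed mean of M values (TMM). Fold changes and adjusted p-values are from the edgeR exact test with Benjamini-Hochberg adjustment over all peaks, called at 0.05. An SE measures spread between libraries on the log2 CPM scale, which uses a larger prior count than the fold change printed beside it. Where a group holds few counts, that prior narrows the SE more than the fold change, so the SE can understate the uncertainty. A value over a bulk library cannot tell more cells with an open site from a site more often open in each cell. The libraries of a group were separate biological replicates according to the study.

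The first comparison asked how the contractile genes differed between lineages. In ducts, 116 of the 201 peaks were more accessible in basal cells and 30 in luminal cells, with a median log2 fold change of 1.12. Over all 153395 peaks tested, 31.8% were higher and 36.6% lower, with a median of -0.10. In TEBs, 46 were higher in basal cells and 20 in luminal cells, with a median of 0.38, beside 16.6% higher, 20.8% lower and a median of -0.07 over all peaks. Scaling on TSS peaks alone gave 97 higher and 43 lower in ducts and 49 and 19 in TEBs. Over all peaks that scaling gave 37863 higher and 65183 lower of 153395 in ducts, and 27394 and 29128 of 153396 in TEBs.

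The largest medians were at the genes' own promoters. In ducts, 13 of the 14 own promoter peaks were higher in basal cells and 1, the internal promoter of Tpm1, was lower, with a median log2 fold change of 2.92. Gene bodies followed, with 46 of 68 peaks higher, 9 lower and a median of 1.58. Between genes, 26 of 52 were higher and 11 lower, and inside other genes 20 of 46 were higher and 9 lower. The 21 promoters of neighbouring genes that fell in the windows had a median of 0.49, with 11 higher and none lower. That is close to the median of 0.35 over all TSS peaks. In TEBs the own promoters gave 12 higher and 1 lower of 14, with a median of 2.07, whereas gene bodies gave 14 and 7 of 68 and neighbouring promoters 2 and 1 of 21. The neighbouring promoters called in TEBs were those of Tln1 (1.502, adjusted p = 5.9e-04), Stambp (0.76 (SE 0.31, adjusted p = 0.033)) and Sidt2 (-0.99 (SE 0.18, adjusted p = 0.0011)), named after their values were seen. Peaks with a CArG box were higher in basal cells for 17 of 18 in ducts, with none lower, and 13 of 18 in TEBs, with 1 lower. Peaks without a box were higher for 99 and lower for 30 of 183 in ducts, and 33 and 19 in TEBs. Over all peaks, 31.8% were higher and 36.6% lower in ducts, and 16.6% and 20.8% in TEBs. Of the 18 peaks with a box, 7 were own promoter peaks, the class with the largest share higher. The box and the class of peak were not separated. The CArG-box peak that was lower in TEBs was the Tpm1 intron site shown (chr9:67040949-67041286), with -1.08 (SE 0.28, adjusted p = 0.012) in TEBs and -0.30 (SE 0.25, adjusted p = 0.33) in ducts, also picked after its values were seen. By gene, the basal-high share in ducts ran from 10 of 26 peaks at Tpm1 to 14 of 15 at Lmod1, and the luminal-high peaks were most numerous at Tpm1 (8) and Mylk (6).

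**Figure D2:**
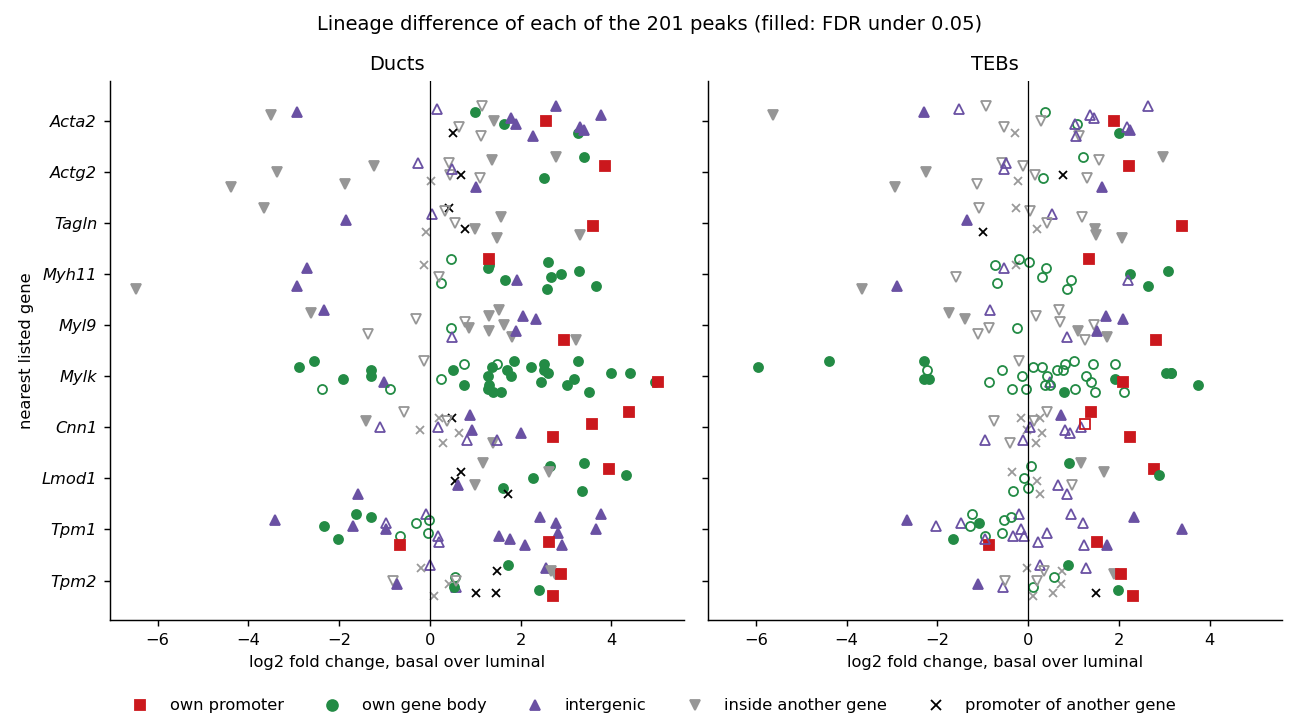
Log2 fold change of basal over luminal cells (x axis) for each of the 201 peaks, by gene, in ducts and in TEBs. Filled symbols (black for crosses) passed an adjusted p of 0.05, and the red squares of the own promoters lie right of 0 in both panels except at the internal Tpm1 promoter. A peak with no count in a group has a fitted value that depends on the prior count.

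Each gene's promoter peak, taken as the most accessible peak at a protein-coding GENCODE TSS of that gene, was higher in basal cells in ducts (10 of 10) and in TEBs (10 of 10). For Mylk this was the peak near its 3' end. At the 5' end of the Mylk record, a RefSeq start, basal and luminal libraries overlapped. Among 13817 promoter peaks of protein-coding genes, 43.6% were higher and 11.5% lower in ducts, and 9.76% higher and 15.1% lower in TEBs. The lowest of the 5 basal libraries lay above the highest of the 6 luminal libraries at all 10 promoters. That held for 10.5% of promoter peaks, and for 52 of the 201 peaks of the set against 13.8% of all peaks. The plot of promoter CPM by library shows the 10 promoters beside the internal promoter of Tpm1.

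**Figure D3:**
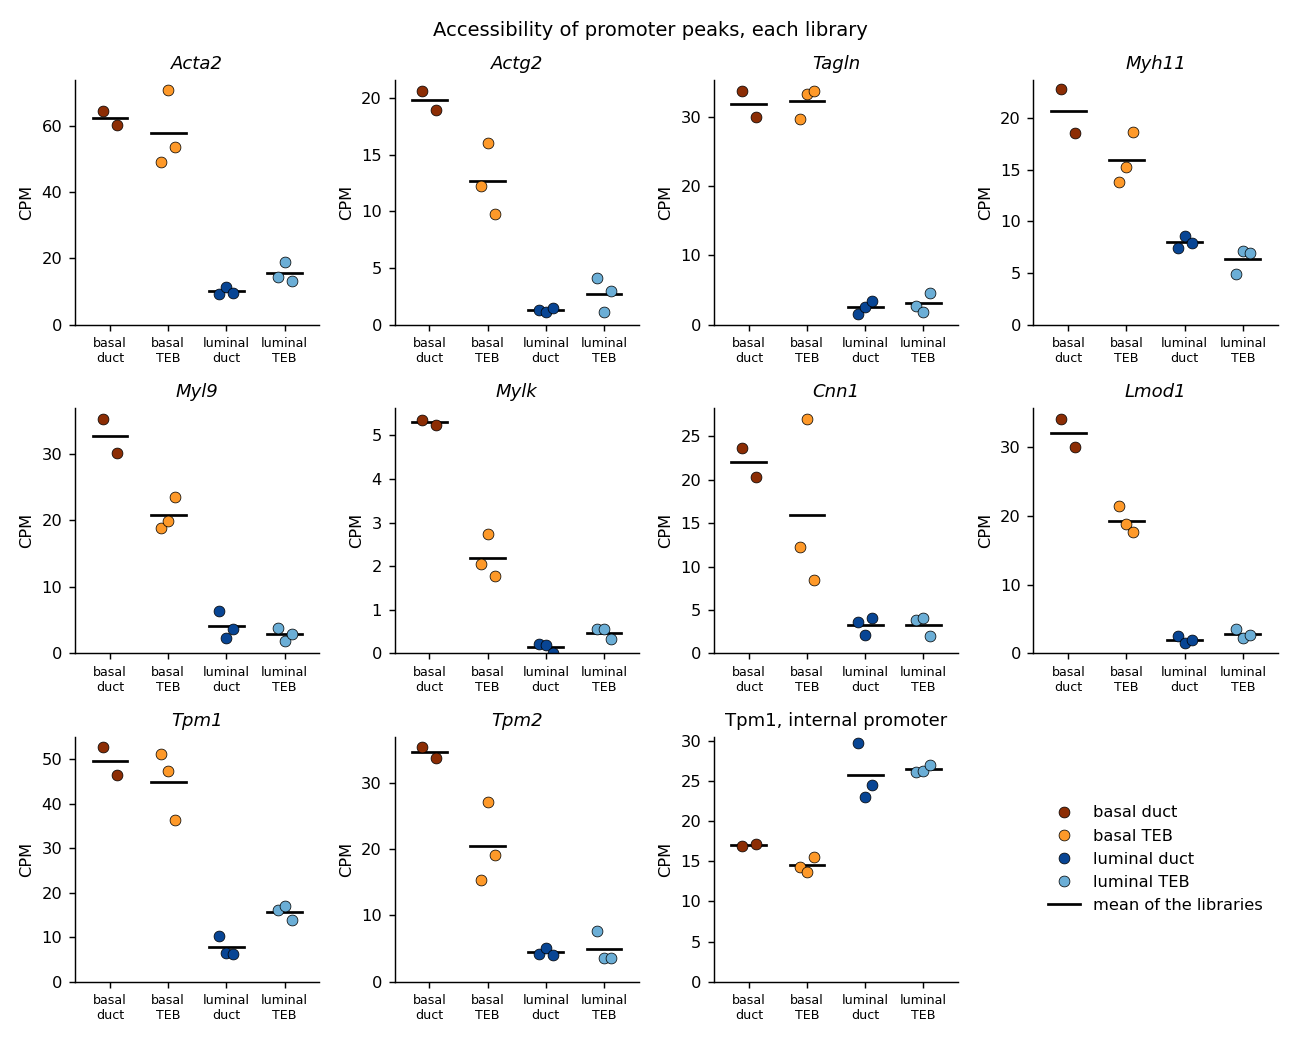
CPM of each library (points) and group mean (bars) at the promoter peak of each contractile gene (for Mylk the one near its 3' end), and at the internal promoter of Tpm1, with 2 basal duct libraries and 3 in each other group. At the 10 promoters every basal library lies above every luminal library, and at the internal promoter of Tpm1 the order is turned.

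Acta2 and Actg2 encode the smooth muscle alpha- and gamma-actins that build the thin filaments. The Acta2 promoter peak (chr19:34254197-34256100), which reached into the first intron and held the 3 boxes shown for it, gave 64.6 and 60.2 CPM in the basal duct libraries, 49.1, 70.8 and 53.6 in basal TEB, 9.33, 11.4 and 9.46 in luminal duct and 14.5, 18.9 and 13.2 in luminal TEB. Here the lowest basal library (49.1 CPM) lay above the highest luminal library (18.9 CPM). The log2 fold change of basal over luminal cells was 2.57 (SE 0.10, adjusted p = 7.8e-46) in ducts and 1.90 (SE 0.22, adjusted p = 4.6e-12) in TEBs. The Actg2 promoter peak (chr6:83535869-83536970) gave 20.6 and 18.9 CPM in the basal duct libraries, 12.3, 16.04 and 9.75 in basal TEB, 1.27, 1.12 and 1.505 in luminal duct and 4.12, 1.09 and 2.96 in luminal TEB. The basal duct libraries were highest, the basal TEB libraries lay below both of them, and the luminal libraries lay below all of these. Between lineages, the log2 fold change was 3.86 (SE 0.11, adjusted p = 6.1e-36) in ducts and 2.22 (SE 0.51, adjusted p = 6.5e-07) in TEBs. An intergenic peak 10.3 kb upstream of Acta2 (chr19:34265459-34266230), with the box shown above, had the highest mean CPM of its sites away from a TSS. It gave 31.1 and 27.7 CPM in the basal duct libraries, 9.71, 26.2 and 21.3 in basal TEB, 2.97, 2.24 and 2.79 in luminal duct and 3.29, 4.098 and 4.94 in luminal TEB. There the lowest basal library (9.71 CPM) lay above the highest luminal library (4.94 CPM), with a log2 fold change of 3.40 (SE 0.13, adjusted p = 1.4e-42) in ducts.

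Tagln and Cnn1 encode transgelin (SM22) and calponin, which bind actin filaments, the latter also slowing the myosin ATPase. The Tagln promoter peak (chr9:45935424-45936308) gave 33.6 and 29.9 CPM in the basal duct libraries, 29.7, 33.3 and 33.7 in basal TEB, 1.48, 2.61 and 3.44 in luminal duct and 2.74, 1.91 and 4.61 in luminal TEB. Basal duct and basal TEB libraries overlapped, and the lowest basal library (29.7 CPM) lay above the highest luminal library (4.61 CPM). On the log2 scale, basal exceeded luminal cells by 3.59 (SE 0.31, adjusted p = 2.1e-47) in ducts and 3.40 (SE 0.32, adjusted p = 2.0e-22) in TEBs, the smallest p of the 10 promoters in TEBs. Cnn1 had 3 own promoter peaks, since the gene has several annotated starts close to each other. The most accessible (chr9:22098834-22099453) gave 23.7 and 20.3 CPM in the basal duct libraries, 12.3, 27.00 and 8.42 in basal TEB, 3.605, 2.05 and 4.08 in luminal duct and 3.84, 4.098 and 1.98 in luminal TEB. The basal TEB libraries were spread, and replicate 2 lay above both duct libraries. Between lineages, the log2 fold change was 2.72 (SE 0.28, adjusted p = 2.0e-26) in ducts and 2.25 (SE 0.56, adjusted p = 7.4e-07) in TEBs. The other Cnn1 peaks lay 0.993 kb (chr9:22100033-22100385, with the CArG box) and 1.71 kb (chr9:22100614-22101247) downstream of the 5' end. They had larger duct values, 3.58 (SE 0.31, adjusted p = 1.6e-18) and 4.38 (SE 0.63, adjusted p = 2.0e-37), and smaller TEB values, 1.26 (SE 1.00, adjusted p = 0.085) and 1.39 (SE 0.72, adjusted p = 0.016). The first of these was picked after its values were seen.

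Tropomyosins lie along the actin filament and control the access of myosin, and leiomodin, the product of Lmod1, nucleates filaments. Tpm1 has a 5' promoter for its long isoforms, the muscle ones among them, and an internal promoter for short non-muscle isoforms. The 5' peak (chr9:67048858-67050101) gave 52.8 and 46.5 CPM in the basal duct libraries, 51.1, 47.4 and 36.3 in basal TEB, 10.4, 6.53 and 6.23 in luminal duct and 16.2, 16.9 and 13.8 in luminal TEB. In luminal cells all TEB libraries lay above all duct libraries. Its log2 fold change between lineages was 2.63 (SE 0.24, adjusted p = 2.7e-41) in ducts and 1.51 (SE 0.17, adjusted p = 2.7e-08) in TEBs. The internal peak, 5.57 kb downstream (chr9:67043451-67044213), gave 16.9 and 17.1 CPM in the basal duct libraries, 14.3, 13.7 and 15.5 in basal TEB, 29.7, 22.9 and 24.5 in luminal duct and 26.1, 26.2 and 27.00 in luminal TEB. Every luminal library lay above every basal library, and the log2 fold change was -0.66 (SE 0.11, adjusted p = 8.3e-04) in ducts and -0.86 (SE 0.05, adjusted p = 0.0047) in TEBs. The promoters of the same gene therefore had opposite directions in both structures. An intergenic peak 5.99 kb upstream of Tpm1 (chr9:67055057-67055736), with 3 TEAD sites and no CArG box, followed the 5' promoter with 3.65 (SE 0.21, adjusted p = 3.8e-28) in ducts and 3.38 (SE 0.35, adjusted p = 2.9e-12) in TEBs.

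At Tpm2, a muscle tropomyosin (beta), the promoter peak (chr4:43523341-43523910) gave 35.3 and 33.7 CPM in the basal duct libraries, 15.3, 27.00 and 19.1 in basal TEB, 4.24, 5.04 and 4.08 in luminal duct and 7.68, 3.55 and 3.62 in luminal TEB. Basal duct libraries lay above basal TEB libraries and both above luminal ones. On the log2 scale, basal exceeded luminal cells by 2.88 (SE 0.09, adjusted p = 1.8e-39) in ducts and 2.04 (SE 0.41, adjusted p = 4.3e-08) in TEBs. A second peak at an upstream start (chr4:43524045-43524594), which holds the CArG box and was picked after its values were seen, had 2.72 (SE 0.11, adjusted p = 8.9e-33) and 2.32 (SE 0.28, adjusted p = 8.7e-11). The Lmod1 promoter peak (chr1:135324454-135325408) gave 34.1 and 30.04 CPM in the basal duct libraries, 21.5, 18.8 and 17.7 in basal TEB, 2.54, 1.49 and 1.93 in luminal duct and 3.57, 2.19 and 2.63 in luminal TEB. Again the lowest basal library (17.7 CPM) lay above the highest luminal library (3.57 CPM). The log2 fold change was 3.95 (SE 0.20, adjusted p = 2.1e-52) in ducts and 2.76 (SE 0.19, adjusted p = 5.5e-13) in TEBs. Inside Lmod1, the intronic peak 34.03 kb from the 5' end (chr1:135358228-135359455, the second intragenic box shown) gave 36.3 and 32.04 CPM in the basal duct libraries, 25.05, 32.9 and 22.2 in basal TEB, 1.48, 1.68 and 1.72 in luminal duct and 5.49, 1.64 and 3.62 in luminal TEB. Here the lowest basal library (22.2 CPM) lay above the highest luminal library (5.49 CPM). Its log2 fold change was 4.32 (SE 0.10, adjusted p = 1.8e-59) in ducts and 2.89 (SE 0.47, adjusted p = 1.9e-15) in TEBs.

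Myh11 is the heavy chain of smooth muscle myosin, Myl9 its regulatory light chain and Mylk the kinase that phosphorylates Myl9. The Myh11 promoter peak (chr16:14291080-14291897) gave 22.8 and 18.5 CPM in the basal duct libraries, 13.8, 15.3 and 18.6 in basal TEB, 7.42, 8.58 and 7.95 in luminal duct and 4.94, 7.104 and 6.92 in luminal TEB. Although the lowest basal library (13.8 CPM) lay above the highest luminal library (8.58 CPM), the log2 fold change of 1.31 (SE 0.16, adjusted p = 2.7e-09) in ducts was the smallest of the 10 promoters, with 1.34 (SE 0.20, adjusted p = 3.0e-04) in TEBs. The Myl9 promoter peak (chr2:156774715-156775610) gave 35.2 and 30.2 CPM in the basal duct libraries, 18.9, 19.96 and 23.5 in basal TEB, 6.36, 2.24 and 3.65 in luminal duct and 3.84, 1.91 and 2.96 in luminal TEB. At this promoter the lowest basal library (18.9 CPM) lay above the highest luminal library (6.36 CPM). The log2 fold change was 2.96 (SE 0.40, adjusted p = 2.7e-37) in ducts and 2.83 (SE 0.27, adjusted p = 1.0e-13) in TEBs. Within Myh11, a coding exon 22.3 kb from the 5' end (chr16:14268747-14269323) had the smallest p of the gene's basal-high sites away from a TSS, with 3.67 (SE 0.17, adjusted p = 9.7e-24) in ducts and 2.64 (SE 0.62, adjusted p = 8.9e-07) in TEBs.

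Of the 24 Mylk peaks that were higher in basal duct cells, 1 was at a start of a protein-coding GENCODE transcript. The gene gives the long and the short kinase and, from a promoter near its 3' end, telokin, a small smooth muscle protein that matches the end of the kinase. The only own promoter peak was at this position (chr16:34994733-34995012), and it gave 5.36 and 5.24 CPM in the basal duct libraries, 2.04, 2.74 and 1.77 in basal TEB, 0.212, 0.187 and 0 in luminal duct and 0.549, 0.546 and 0.329 in luminal TEB. The luminal libraries were at or close to 0. The log2 fold change was 5.03 (SE 0.17, adjusted p = 3.1e-15) in ducts and 2.10 (SE 0.19, adjusted p = 0.046) in TEBs, and the TEB call held in 8 of 14 settings, with adjusted p from 0.023 to 0.16. The 5' end of the gene record, which is a RefSeq transcript start (chr16:34744898-34745664), was open in every group, with 21.1 and 19.7 CPM in the basal duct libraries, 5.11, 7.04 and 10.6 in basal TEB, 17.6, 12.7 and 11.2 in luminal duct and 9.88, 12.02 and 12.5 in luminal TEB. The log2 fold change there was 0.50 (SE 0.19, adjusted p = 0.017) in ducts and -0.57 (SE 0.30, adjusted p = 0.2) in TEBs.

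The Mylk site away from a start with the smallest p between duct lineages lay 176 kb inside the gene over a coding exon (chr16:34920300-34921827), at the CArG box shown. It gave 51.6 and 36.7 CPM in the basal duct libraries, 33.7, 37.6 and 36.8 in basal TEB, 3.18, 1.87 and 3.01 in luminal duct and 4.67, 3.83 and 3.62 in luminal TEB. There the lowest basal library (33.7 CPM) lay above the highest luminal library (4.67 CPM). The log2 fold change was 3.99 (SE 0.32, adjusted p = 2.9e-62) in ducts and 3.14 (SE 0.11, adjusted p = 2.0e-22) in TEBs. A peak at another RefSeq start, 62.2 kb inside the gene (chr16:34806860-34807981), was picked after its values were seen. It gave 35.6 and 35.1 CPM in the basal duct libraries, 13.3, 26.2 and 27.5 in basal TEB, 2.54, 1.12 and 1.07 in luminal duct and 4.39, 0.8197 and 2.96 in luminal TEB. Basal libraries were again all above luminal ones, with a log2 fold change of 4.42 (SE 0.32, adjusted p = 7.4e-62) in ducts and 3.04 (SE 0.66, adjusted p = 4.4e-13) in TEBs. Of the 36 Mylk peaks, 24 were higher and 6 lower in basal duct than luminal duct cells, and 7 and 5 in TEBs. The luminal-high Mylk peak with the smallest p in ducts (chr16:34812214-34812576) had means of 0.784 ± 0.0193 CPM (SD, n = 2) in basal duct and 4.52 ± 1.13 CPM (SD, n = 3) in luminal duct libraries.

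**Figure D4:**
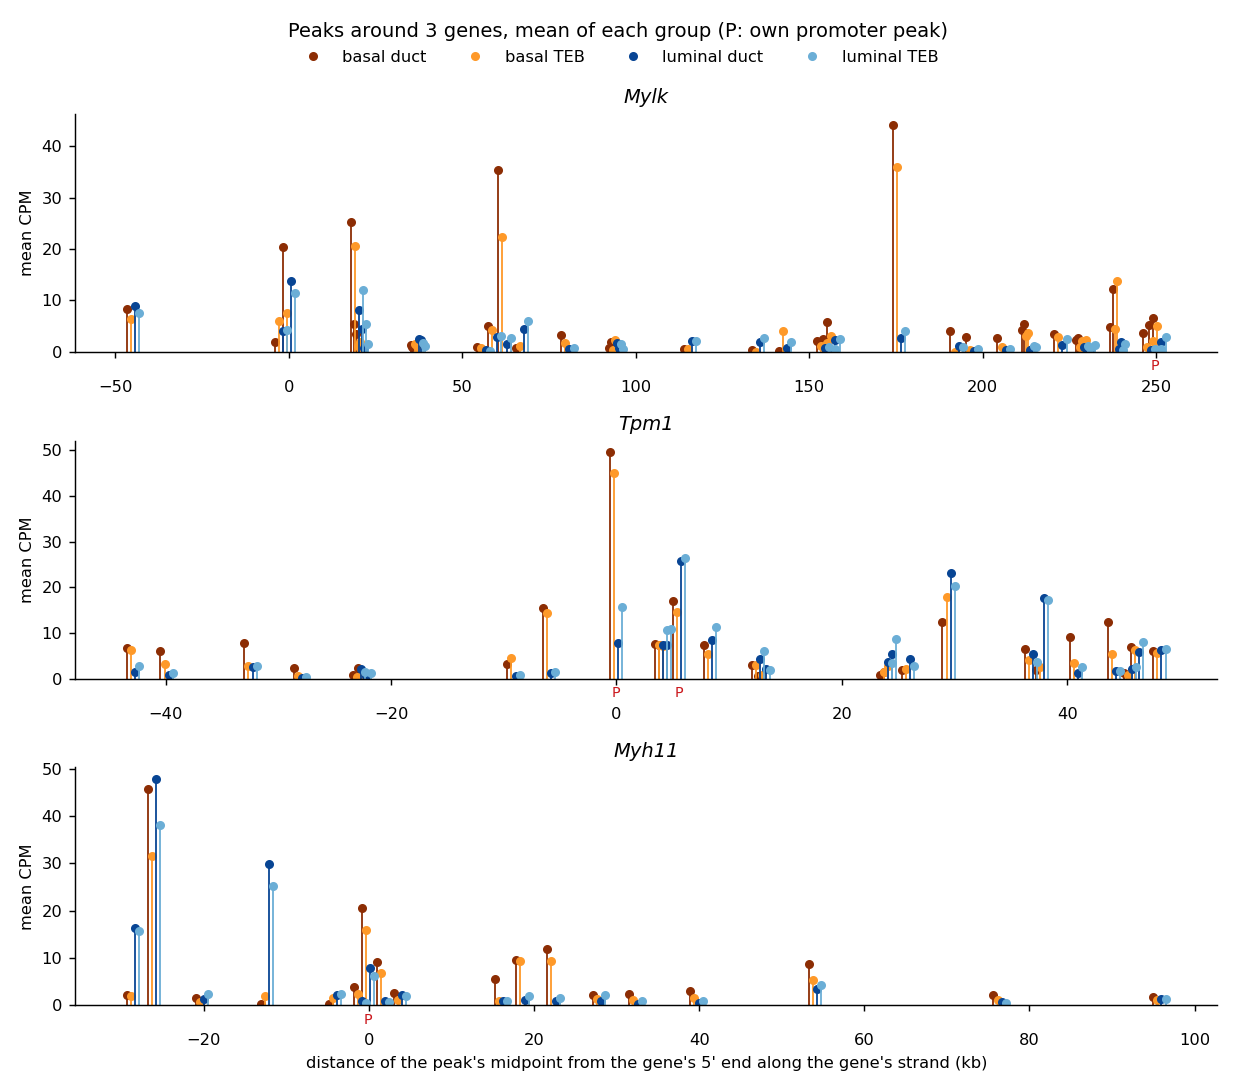
Mean CPM of each group (y axis) at the peaks around Mylk, Tpm1 and Myh11, by distance from the 5' end of the gene along its strand (kb), with P under own promoter peaks. Mylk has basal-high sites deep in the gene, Tpm1 has a basal-high 5' promoter and a luminal-high internal promoter, and Myh11 has a luminal-high site 12.4 kb upstream.

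Levels were compared between promoters per kilobase of peak (RPKM). In basal duct libraries the order of mean RPKM was Tpm2 60.6, Tpm1 39.9, Myl9 36.5, Tagln 35.9, Cnn1 35.5, Lmod1 33.6, Acta2 32.8, Myh11 25.2, Mylk 18.9 and Actg2 17.95. In luminal duct libraries the same promoters ranged from 0.475 to 9.76 RPKM. The internal Tpm1 promoter had 22.3 RPKM in basal duct and 33.7 in luminal duct libraries. Tpm2 lay above all the others in both basal duct libraries. From Tpm1 down to Acta2, each promoter's 2 basal duct libraries overlapped those of its neighbour, Myh11 lay below them, and Mylk and Actg2 lay below Myh11.

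Within the same windows, 30 peaks were more accessible in luminal duct than basal duct cells, and 20 of them lay between or inside other genes. The largest difference was 12.4 kb upstream of Myh11 inside Fopnl (chr16:14303322-14304190), and it gave 0.342 and 0.308 CPM in the basal duct libraries, 3.07, 0.391 and 2.66 in basal TEB, 32.4, 29.1 and 27.9 in luminal duct and 20.9, 29.5 and 25.03 in luminal TEB. Here the lowest luminal library (20.9 CPM) lay above the highest basal library (3.07 CPM), and the log2 fold change was -6.48 (SE 0.07, adjusted p = 8.7e-67) in ducts and -3.67 (SE 0.67, adjusted p = 3.3e-18) in TEBs. Per kilobase, its mean level was 34.3 RPKM in luminal duct libraries, beside 25.2 RPKM for the Myh11 promoter in basal duct libraries. A further luminal-high peak lay 28.6 kb upstream (chr16:14319717-14320168), with -2.93 (SE 0.14, adjusted p = 1.2e-23) and -2.90 (SE 0.22, adjusted p = 1.8e-10). Around Actg2, the peak 42.3 kb downstream of the 5' end, inside Dguok (chr6:83493712-83494247), had -4.38 (SE 0.30, adjusted p = 6.4e-24) in ducts and -2.93 (SE 0.94, adjusted p = 1.5e-09) in TEBs. Downstream of Tpm1, a peak 37.7 kb from the 5' end (chr9:67011422-67011955) gave 1.03 and 2.62 CPM in the basal duct libraries, 1.02, 1.57 and 5.32 in basal TEB, 17.4, 21.3 and 14.2 in luminal duct and 19.2, 16.7 and 15.5 in luminal TEB. At this site the lowest luminal library (14.2 CPM) lay above the highest basal library (5.32 CPM), with -3.41 (SE 0.55, adjusted p = 1.1e-27) in ducts. Upstream of Acta2, the peak at 31.6 kb (chr19:34286837-34287506) had -2.94 (SE 0.21, adjusted p = 7.1e-20) in ducts and -2.29 (SE 0.54, adjusted p = 6.6e-08) in TEBs. These sites were assigned by distance alone, and no value here ties them to the gene they are listed under.

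The second comparison asked how TEBs differed from ducts within a lineage. In basal cells, 4 of the 201 peaks were higher and 25 lower in TEBs, with 8.22% and 9.73% over all peaks. The split turned with the scaling, being 11 higher and 2 lower with TMM factors from TSS peaks and 9 and 7 with loess offsets. The calls over all 153358 peaks turned too, with 21661 higher and 2495 lower under the former and 14406 and 5527 under the latter. The calls also rested on both duct libraries, since leaving out either left 1 in that group. The median log2 fold change of all TSS peaks was then -0.50 without replicate 1 and -0.73 without replicate 3. The median log2 fold change of all TSS peaks was -0.62 with TMM over all peaks and 0.02 with TMM from TSS peaks. None of the 10 contractile promoters passed the edgeR exact test or the DESeq2 Wald test, and 5 had an unadjusted p under 0.05, all with lower values in TEBs. Over all promoter peaks of protein-coding genes, 34.7% were lower and 0.601% higher. Leaving out basal TEB replicate 2 gave lower calls for Tpm2 (-1.004, adjusted p = 0.0041), Cnn1 (-1.11, adjusted p = 0.0064) and Actg2 (-0.86, adjusted p = 0.044), and leaving out basal TEB replicate 1 gave one for Lmod1 (-0.81, adjusted p = 0.04). The log2 fold changes were 0.02 at Tagln, -0.11 at Acta2 and -0.15 at the 5' promoter of Tpm1, above the TSS median, and -0.73 at Lmod1, -0.74 at Tpm2 and -1.25 at Mylk, below it. The median over the 10 promoters was -0.54, itself above the TSS median of -0.62. With TMM from TSS peaks, Tagln had 0.67 (adjusted p = 0.035; with loess offsets 0.60, adjusted p = 0.028) and Acta2 0.53 (adjusted p = 0.081).

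**Figure D5:**
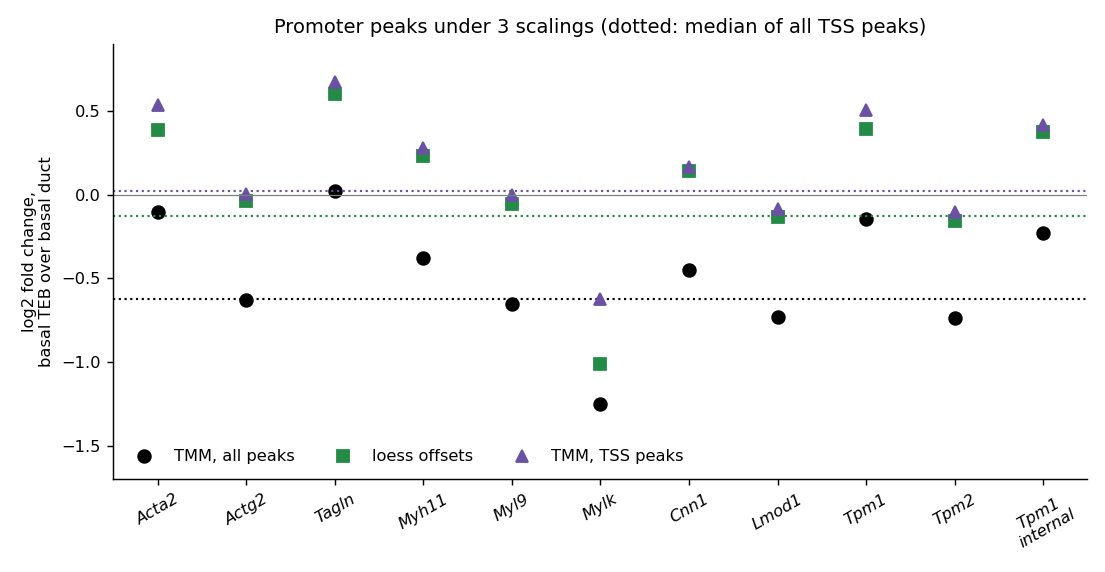
Log2 fold change of basal TEB over basal duct cells (y axis) at the promoter peaks of the contractile genes under TMM over all peaks, loess offsets and TMM from TSS peaks, with the median of all TSS peaks under each as a dotted line. Tagln, Acta2, Myh11 and both Tpm1 promoters are among those above their dotted line under each scaling, and Mylk lies below it.

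Away from starts, the sites with the smallest p in basal cells included an intergenic peak 33.5 kb upstream of Lmod1 (chr1:135291043-135291650), which gave 1.48 and 2.62 CPM in the basal duct libraries, 10.7, 18.8 and 7.53 in basal TEB, 5.73, 5.22 and 6.45 in luminal duct and 5.21, 9.02 and 6.59 in luminal TEB. The basal TEB libraries were all above both basal duct libraries, with a log2 fold change of 2.62 (SE 0.50, adjusted p = 6.2e-06). A small peak 8.09 kb upstream of Cnn1 (chr9:22090958-22091300) had means of 0.573 ± 0.157 CPM (SD, n = 2) in basal duct and 4.28 ± 0.173 CPM (SD, n = 3) in basal TEB libraries, with 2.81 (SE 0.16, adjusted p = 0.0024). In Mylk the peak 143 kb from the 5' end (chr16:34888221-34888415) had 4.61 (SE 0.70, adjusted p = 6.1e-04), but replicate 1 of basal TEB gave 8.18 CPM and the other two 1.17 and 2.66. The remaining higher peak lay 2.18 kb upstream of Mylk (chr16:34742930-34743135) with 1.52 (SE 0.60, adjusted p = 0.036), and is named after its values were seen. Among lower sites, the Mylk peak 193 kb from the 5' end (chr16:34937637-34937856) had no count in any basal TEB library and 3.304 and 4.62 CPM in the basal duct libraries. Against a floor of 3 counts over the group it was at least 8.94-fold lower, with an adjusted p of 4.9e-05. The 5' end peak of Mylk fell by 1.41 on the log2 scale (SE 0.29, adjusted p = 8.5e-04), and an intronic Myh11 peak 15.96 kb from the 5' end (chr16:14275257-14275558) had -2.44 (SE 0.68, adjusted p = 0.0011).

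In luminal cells, 2 of the 201 peaks were higher in TEBs and 0 lower, with 0.311% and 0.455% over all peaks. The exact test gave an unadjusted p under 0.05 at 24 of the 201 peaks, 4 of them lower, which is 11.9% beside 11.5% of all peaks. The DESeq2 Wald test called 0 higher and 0 lower, beside 21 higher and 451 lower of all 153394 peaks. The first called peak was the 5' promoter of Tpm1, where the 3 luminal TEB libraries were all above the 3 luminal duct libraries, with a log2 fold change of 1.03 (SE 0.24, adjusted p = 0.0084). The call was lost without luminal duct replicate 2 (adjusted p = 0.098) and without luminal TEB replicate 1 (adjusted p = 0.067). The other was a peak 40.9 kb upstream of Cnn1 inside Zfp653 (chr9:22057848-22058689), with 4.03, 1.68 and 2.58 CPM in luminal duct and 6.86, 7.104 and 7.57 in luminal TEB libraries and a log2 fold change of 1.38 (SE 0.31, adjusted p = 0.018). The Acta2 promoter had 0.63 (SE 0.17, adjusted p = 0.16), with all luminal TEB libraries above all luminal duct libraries, and passed with TMM from TSS peaks (0.77, adjusted p = 0.038).

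Whether the lineage difference itself differed between structures was tested with the edgeR quasi-likelihood interaction over all 11 libraries, and a negative value means a smaller excess of basal over luminal cells in TEBs. Of the 201 peaks, 166 passed the count filter of that model, 2 had a positive and 20 a negative interaction. The positive ones were the peaks 33.5 kb upstream of Lmod1 (2.45, adjusted p = 9.5e-04) and 12.4 kb upstream of Myh11 (2.78, adjusted p = 0.0097). Over all 126832 peaks tested, 7.51% were positive and 6.5% negative. With TMM from TSS peaks the split was 8 and 8, beside 16017 positive and 3411 negative over all 126832 peaks. The negative count rose to 31 without basal TEB replicate 2, beside 12225 of 130612 peaks tested. Leaving out a basal duct library left 1 in that group. Among the 10 promoters, Actg2 (-1.61, adjusted p = 0.039) and Tpm1 (-1.10, adjusted p = 0.011) passed, both negative, beside 14.9% negative and a median of -0.43 over all promoter peaks. The other 8 ranged from -2.82 at Mylk to 0.04 at Myh11. The Cnn1 promoter peak furthest downstream (chr9:22100614-22101247) gave 19.8 and 16.3 CPM in the basal duct libraries, 9.71, 5.87 and 8.42 in basal TEB, 0, 1.12 and 1.29 in luminal duct and 2.195, 0.8197 and 6.26 in luminal TEB. Its lineage gap was wide in ducts and narrow in TEBs, with an interaction of -2.94 (adjusted p = 0.0029). The Lmod1 peak 42.4 kb from the 5' end (chr1:135366913-135367482) had the same shape, with 24.95 and 22.03 CPM in the basal duct libraries, 9.71, 7.83 and 11.5 in basal TEB, 3.18, 0.933 and 2.36 in luminal duct and 4.67, 6.83 and 3.95 in luminal TEB. Its interaction was -2.50 (adjusted p = 3.5e-04), and that of the first intragenic box shown for Lmod1 was -2.56 (adjusted p = 0.006).

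Other genes of the contractile system were read at their promoter peaks. Of 27 other smooth muscle genes with a promoter peak, 21 were higher and 0 lower in basal duct cells (median 0.90), and 7 and 1 in TEBs (median 0.12), where Csrp1, a LIM protein, was the one lower with -0.75 (SE 0.36, adjusted p = 0.039). The medians over all promoter peaks were 0.31 and -0.09, with 43.6% higher and 11.5% lower in ducts and 9.76% and 15.1% in TEBs. Prkg1, the cGMP-dependent kinase, had 3.44 (SE 0.18, adjusted p = 6.8e-47) in ducts, and Tgfb1i1 (Hic-5), a focal adhesion adaptor, 2.87 (SE 0.23, adjusted p = 1.7e-33). Desmin (Des), the muscle intermediate filament, had 0.73 (SE 0.30, adjusted p = 0.035) in ducts and -0.75 (SE 0.18, adjusted p = 0.37) in TEBs. The 14 non-muscle relatives, such as the cytoplasmic actins and myosins, gave 5 higher and 1 lower in ducts (median 0.22) and 2 and 2 in TEBs (median -0.13), the TEB calls being Myh9 and Myh10 higher and Tagln2 and Tmod3 lower. Myh10, a non-muscle myosin, had 0.94 (SE 0.15, adjusted p = 2.1e-09) and Tagln2, the non-muscle transgelin, -0.89 (SE 0.23, adjusted p = 5.2e-09) in ducts, so the muscle and non-muscle transgelins had opposite directions.

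Of the 30 striated muscle relatives only 15 had a promoter peak, Acta1 and Actc1 not among them, with 10 higher and 2 lower in ducts (median 1.69) and 2 and 0 in TEBs (median 0.41), the TEB calls being Mylpf and Tnni1. Tnni1, the slow skeletal troponin I, had 2.74 (SE 0.42, adjusted p = 1.9e-41), Tmod1, which caps actin filaments, 1.75 (SE 0.14, adjusted p = 1.4e-12), and Myh7, the slow myosin heavy chain, -3.10 (SE 0.21, adjusted p = 1.5e-05) in ducts, and Tnni3, the cardiac troponin I, -0.97 (SE 0.48, adjusted p = 0.01). Of 24 genes that signal to contraction, 12 were higher and 2 lower in ducts (median 0.32) and 3 and 2 in TEBs (median -0.18). The duct values were close to those of all promoter peaks, 43.6% higher and 11.5% lower with a median of 0.31. The TEB calls were Ednrb, Ednra and Arhgef1 higher and Rock2 and Calm2 lower. The endothelin receptor Ednrb had 2.73 (SE 0.33, adjusted p = 2.0e-18) in ducts and 2.37 (SE 0.43, adjusted p = 7.9e-07) in TEBs, and the inositol trisphosphate receptor Itpr2 1.44 (SE 0.16, adjusted p = 3.0e-16) in ducts. The receptor Itpr1 had -0.42 (SE 0.19, adjusted p = 0.012) and calmodulin Calm3 -0.33 (SE 0.21, adjusted p = 0.045).

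Pericytes and vascular smooth muscle also use these contractile genes, and no depletion marker was named for them. The gate otherwise kept CD29+CD24+ cells with low or high E-cadherin-GFP, and how far it left such cells out was not tested. Of 11 markers of these cells, 7 had a promoter peak, and Cspg4, Abcc9, Higd1b and Ndufa4l2 had none. Their summed promoter CPM was 58.7 to 68.5 (basal duct), 37.2 to 49.6 (basal TEB), 29.02 to 31.6 (luminal duct) and 33.5 to 37.5 (luminal TEB). In ducts 5 were higher in basal cells and in TEBs 1 (Pdgfrb), among them Pdgfrb with 2.56 (SE 0.35, adjusted p = 1.4e-17) in ducts, whereas Rgs5 had 0.02 (SE 0.23, adjusted p = 1) and Notch3 -0.17 (SE 0.20, adjusted p = 0.64). None of the 7 was called lower. Over all promoter peaks of protein-coding genes, 43.6% were higher and 11.5% lower in ducts, and 9.76% and 15.1% in TEBs. Fibroblast markers had 4 promoter peaks of 10, Col1a1 and Col3a1 having none, with sums of 84.7 to 99.9 (basal duct), 42.4 to 52.4 (basal TEB), 19.1 to 19.8 (luminal duct) and 12.5 to 18.9 (luminal TEB). All 4 were higher in basal cells in ducts and 3 in TEBs, with none lower. Endothelial markers had 4 of 10, Pecam1 and Cdh5 having none, with 45.8 to 47.3 (basal duct), 26.6 to 36.8 (basal TEB), 9.75 to 13.1 (luminal duct) and 10.9 to 14.3 (luminal TEB). All 4 of these were higher in basal cells in ducts and 2 in TEBs, with none lower. Immune markers had 2 of 8, with 11.3 to 13.2 (basal duct), 5.62 to 9.78 (basal TEB), 12.5 to 14.2 (luminal duct) and 9.29 to 14.5 (luminal TEB), and skeletal muscle markers 3 of 6, with 23.1 to 23.9 (basal duct), 17.2 to 19.4 (basal TEB), 9.33 to 10.96 (luminal duct) and 6.01 to 11.3 (luminal TEB). The immune peaks gave 1 higher and 1 lower in ducts, and 0 and 1 in TEBs. The skeletal muscle peaks gave 2 higher and 1 lower in ducts, and 2 and 0 in TEBs. The part of such cells in the contractile values was not tested.

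The median pattern of the 10 promoters over the 4 groups was searched for among 13596 promoter peaks of 14804 other genes, where neighbours can share a peak, at least as accessible as the weakest of the 10, by the root mean square difference of the centred group means of log2 CPM. The 5 closest were Gm21083 (0.0444), Tril (0.0667), Lrrc9 (0.0748), Gm3002 (0.0792) and Dkk3 (0.0812). Dkk3, a secreted protein of the Dickkopf family, had mean values of 20.8 CPM in basal duct, 12.4 in basal TEB, 2.15 in luminal duct and 2.38 in luminal TEB libraries. The 10 contractile promoters themselves lay 0.152 (Tpm2) to 0.706 (Myh11) log2 units from their own median pattern. The likeness rests on 4 group means from the same 11 libraries.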

How the data were processed

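ATAC-seq was analysed in 11 libraries of sorted cells of both lineages of ducts and TEBs. The authors deposited read counts per peak for each library, as whole numbers that were not normalised. According to the study's methods and the submitters' processing notes, trimmed reads were mapped to mm10 with Bowtie2 (2.3.4.3 in the notes), duplicates were removed, peaks were called with MACS2 on pooled replicates of each population and merged, blacklisted regions were left out, and reads were counted in SeqMonk. A peak found only in pooled replicates of a deep group can therefore hold few counts in a shallow one. Library totals ran from 1821942 to 9986384 counts in peaks, and 286 peaks of the peak list had no row of counts.

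The 10 genes, the gene lists and the tests were chosen with earlier results of these data known. Gene records and protein-coding TSSs were those of GENCODE for mm10, and sequences and RefSeq starts were taken from RefSeq GRCm38.p6. Each pair of groups was compared with the edgeR 4.0.16 exact test (TMM, R 4.3.3), as in the study, over every peak counted in either group, and lineage by structure with an edgeR quasi-likelihood interaction over peaks past filterByExpr. Adjusted p-values are Benjamini-Hochberg over all peaks tested, called at 0.05. CPM were computed from the counts and TMM factors. The log2 CPM carry a prior count of 2, and the fitted fold changes carry the smaller default prior count of edgeR. Named peaks were, for each gene, the promoter peak and alternative promoters, the strongest peak away from a TSS and those with the smallest p in each direction in ducts, then the 3 smallest p in each direction of the other comparisons. For each gene list the 2 genes with the smallest p in each direction were named, other names being marked. DESeq2 1.42.0, limma 3.58.1 loess offsets, other scalings, filters, thresholds, windows and left-out libraries were the alternatives. GC loess offsets were added after the data were seen. Scripts were tested on simulated data and run with Python 3.11.15.

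Same-numbered replicates are not said to share animals, and the correlation of their deviations ran from -0.0008 to 0.0792, so no block was used. If the libraries of a group do not come from separate animals, the p-values measure the technical spread between them.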

Additional observations from a re-analysis of the deposited data

Results flagged for a closer look

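The basal over luminal difference of 14 named peaks differed between TEBs and ducts in the edgeR quasi-likelihood interaction over all 11 libraries, and each value below is the TEB log2 fold change minus the duct one. At promoters the values were -1.61 (adjusted p = 0.039) for Actg2, -1.10 (adjusted p = 0.011) for the 5' promoter of Tpm1 and -2.94 (adjusted p = 0.0029) for the Cnn1 promoter peak furthest downstream, all with a smaller basal excess in TEBs. Inside Lmod1 they were -2.56 (adjusted p = 0.006) at 23.02 kb, -1.40 (adjusted p = 0.038) at 34.03 kb and -2.50 (adjusted p = 3.5e-04) at 42.4 kb from the 5' end, and in Mylk -1.07 (adjusted p = 0.043) at the 5' end and -6.84 (adjusted p = 0.0094) at 193 kb, where no basal TEB library held a count and the size depends on the prior count.

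In the flanks the values were -1.07 (adjusted p = 0.023) and -1.94 (adjusted p = 0.045) for peaks 43.1 and 39.4 kb upstream of Myl9, both inside Dlgap4, -1.80 (adjusted p = 0.019) for a peak 3.19 kb upstream of Tagln inside Sidt2, and -1.79 (adjusted p = 0.016) for the one 40.9 kb upstream of Cnn1. At the Tagln site the libraries gave 19.8 and 21.3 CPM in the basal duct libraries, 6.13, 14.9 and 7.09 in basal TEB, 0.636, 2.99 and 2.15 in luminal duct and 4.39, 2.73 and 2.96 in luminal TEB. The basal duct libraries were above every other library there. Positive values were found 33.5 kb upstream of Lmod1, with 2.45 (adjusted p = 9.5e-04), and 12.4 kb upstream of Myh11, with 2.78 (adjusted p = 0.0097). The basal TEB libraries were the shallowest, and the part of depth and scaling in these values was not tested beyond the alternatives given here.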

How the results depend on the processing

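The 10 promoters kept their direction between lineages in ducts and TEBs under each alternative that gave a value, and all stayed past the threshold except Mylk in TEBs. Over all peaks, the reported settings called 31873 lower in TEB lineages, and 12605 higher and 14924 lower in basal TEB against duct. They called 477 higher in luminal TEB against duct, with 9528 positive and 8249 negative interactions. The counts of peaks of the set that moved by over 1.5 times under other settings were as follows, and the cause was not tested. With the DESeq2 Wald test, the counts were 13 lower in TEB lineages and 7 lower in basal TEB against duct (23369 and 5890 over all peaks). That test called 0 higher in luminal TEB against duct and 8 with a negative interaction (21 and 3599 over all peaks). With DESeq2 size factors, the counts were 12 with a negative interaction (5723 over all peaks). With a threshold of 0.01, the counts were 14 lower in basal TEB against duct, 1 higher in luminal TEB against duct and 7 with a negative interaction. With GC loess offsets, chosen after the data were seen, the counts were 13 with a negative interaction (6680 over all peaks). With TMM from TSS peaks, the counts were 11 higher and 2 lower in basal TEB against duct (21661 and 2495 over all peaks). In luminal TEB against duct that scaling gave 4 higher (1259 over all peaks). The interaction gave 8 positive and 8 negative (16017 and 3411 over all peaks). With filterByExpr, the counts were 9 lower in basal TEB against duct (6821 over the 64652 peaks tested). With loess offsets on abundance, the counts were 9 higher and 7 lower in basal TEB against duct (14406 and 5527 over all peaks). These offsets gave 11 with a negative interaction (4675 over all peaks). With a window of 10 kb, which holds fewer peaks, the counts were 69 higher in duct lineages, 14 lower in duct lineages, 9 lower in TEB lineages, 12 lower in basal TEB against duct, 1 higher in luminal TEB against duct, 0 with a positive interaction and 13 with a negative interaction. Leaving out one library gave ranges, some within 1.5 times of the reported count, of 0 to 6 higher in basal TEB against duct, 35 to 55 higher in TEB lineages, 103 to 114 higher in duct lineages, 0 to 4 higher in luminal TEB against duct, 1 to 32 lower in basal TEB against duct, 15 to 20 lower in TEB lineages, 23 to 30 lower in duct lineages, 0 to 0 lower in luminal TEB against duct, 7 to 31 with a negative interaction and 1 to 5 with a positive interaction. The basal TEB libraries were the shallowest, with 1821942 to 2489582 counts, and basal duct had 2 libraries, and how far depth limits the calls was not tested. The negative interaction count rose to 31 without basal TEB replicate 2, beside 12225 of 130612 peaks tested. The ranges include fits without a basal duct library, which left 1 in that group. Promoter values between basal TEB and basal duct turned sign, being Acta2 0.014 with the DESeq2 Wald test, Acta2 0.013 with DESeq2 size factors, Tpm1 0.29 and Tpm1 (internal) 0.42 with GC loess offsets, Acta2 0.53, Actg2 4.6e-03, Myh11 0.28, Cnn1 0.17, Tpm1 0.50 and Tpm1 (internal) 0.42 with TMM from TSS peaks, Acta2 0.30, Myh11 0.034, Tpm1 0.27 and Tpm1 (internal) 0.18 with filterByExpr, Acta2 0.38, Myh11 0.23, Cnn1 0.14, Tpm1 0.39 and Tpm1 (internal) 0.37 with loess offsets on abundance and Tagln -5.0e-03 with the replicate block. In the same comparison the Cnn1 (-1.10, adjusted p = 0.009) and Tpm2 promoters (-1.01, adjusted p = 0.006) passed as lower with the replicate block. Over the left-out libraries values ran -0.29 to 0.032 for Acta2 in basal TEB against duct (turned without basal TEB replicate 3), -0.19 to 0.31 for Cnn1 in luminal TEB against duct (turned without luminal duct replicate 2, luminal TEB replicate 1 and luminal TEB replicate 2), -0.082 to 0.13 for Tagln in basal TEB against duct (turned without basal duct replicate 3 and basal TEB replicate 2), -0.11 to 0.55 for Tagln in luminal TEB against duct (turned without luminal TEB replicate 3), -0.037 to 0.16 for Tpm1 (internal) in luminal TEB against duct (turned without luminal duct replicate 2), -0.25 to 0.072 for Tpm1 in basal TEB against duct (turned without basal TEB replicate 3) and -0.30 to 0.37 for Tpm2 in luminal TEB against duct (turned without luminal TEB replicate 1).

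The labels do not say that replicate numbers pair samples, and no pair of same-numbered libraries deviated together past 0.1 (correlations of -0.0008 to 0.0792). With the replicate block the counts were 108 higher and 28 lower in duct lineages (44824 and 53862 over all peaks). In TEB lineages they were 43 higher and 18 lower (21658 and 29470 over all peaks). In basal TEB against duct they were 5 higher and 26 lower (12913 and 16550 over all peaks). In luminal TEB against duct they were 3 higher and 0 lower (1049 and 1702 over all peaks). The block gave 3 positive and 20 negative interactions (9497 and 8639 over all peaks).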
